A study of Mus musculus with 11 samples.

Results

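The genes described here are the 44 nuclear genes for complex II, complex III, cytochrome c and ATP synthase, with their assembly factors and the ATP synthase inhibitor, among 37583 gene IDs measured in 11 single-cell-derived mouse lines of granulocyte-monocyte progenitors (GMPs). They were chosen by a rule on names: protein-coding symbols of the Sdh, Sdhaf, Uqcr, Uqcc and Atp5 families plus Cyc1, Cycs, Bcs1l, Ttc19, Atpaf1, Atpaf2 and Atpif1. The choice was made with earlier results of these data known. Complex II had 8 members, complex III 14, cytochrome c 1 and ATP synthase 21. Usmg5 entered through its newer RefSeq symbol in the Atp5 family, and 6 noncoding copies with matching names were left out. Of the 44, 42 passed the filter on low counts and were tested, and Atp5g2 and Atp5l did not pass it.

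C57BL/6 fetal liver of embryonic day 15.5 gave all lines, and each carried ER-Hoxb8 from a retrovirus. This is Hoxb8 joined to the hormone-binding domain of the estrogen receptor, and with estradiol it holds progenitors immature and dividing. All grew in 0.5 uM beta-estradiol with stem cell factor at about 50 ng/ml, and each library is 1 clone. There were 6 wild-type (WT) clones, named 1A, 1B, 1C, 2D, 2E and 2F in their titles, and 5 clones deficient in tafazzin (KO), named 3H, 3I, 4J, 4K and 4L. What the leading number stands for is not stated in the sources used. It differs between the genotypes, so p-values measure the spread between clones, which may share a parent culture. Tafazzin, the product of Taz, remodels cardiolipin, the characteristic lipid of the inner mitochondrial membrane.

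As background, complex II takes electrons from succinate and passes them to ubiquinone, and it is both a respiratory complex and an enzyme of the citric acid cycle. Complex III passes electrons from reduced ubiquinone to cytochrome c and moves protons across the inner membrane as it does so. ATP synthase lets protons flow back through a rotating ring of c subunits in its membrane part, Fo, and makes ATP in its soluble head, F1. Cardiolipin is known to bind all of these complexes, and ATP synthase dimers, joined through small Fo subunits such as e and g, shape the cristae. Complex III and ATP synthase also hold subunits encoded in the mitochondrial genome, which were not analysed here.

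Gene counts totalled 19778119 to 27431544 per clone. Taz was 39.1 ± 2.54 CPM (counts of a gene per 1 M counts of the TMM-scaled library) in WT and 3.23 ± 0.685 in KO clones (SD, n = 6 and 5), with a log2 difference of -3.60 ± 0.14 (SE; adjusted p = 4.08e-07 by edgeR; two-sided exact permutation p = 0.00216), and no clone went against its label. The 11 GMP markers summed to 13120 to 22520 CPM in WT and 12240 to 20300 in KO clones, while all 3 T-cell markers and 3 of 4 fetal hepatocyte markers stayed under 1 CPM. The 4 mast cell or basophil markers summed to 1006 to 3799 and 1996 to 4702 CPM, the 5 monocyte or macrophage markers to 809.7 to 2294 and 1137 to 1976 CPM, and the 5 B-cell markers to 30.4 to 50.1 and 4.52 to 27.4 CPM in WT and KO clones. The 8 erythroid markers summed to 5.49 to 75.8 and 5.46 to 11.8 CPM, and the 3 megakaryocyte markers to 62.4 to 218 and 108 to 235 CPM. The 10 late neutrophil markers summed to 1531 CPM in WT clone 2D and to at most 142 CPM in every other clone. In these bulk libraries, fewer cells that express a gene and less RNA per cell cannot be told apart.

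Several members have near-identical copies elsewhere in the genome, so the counts of these members are uncertain. The counter's own total of alignments that were not unique names no gene. It came to 82.6 to 85.3 per 100 gene counts in WT clones and 84.6 to 87.6 in KO clones. How such reads were counted is not stated in the sources used. Cytochrome c and subunit c of ATP synthase are shown as examples. The first 60 coding bases of Cycs are shown with those of Gm10053, its closest copy, annotated as protein-coding on chromosome 19; no base differs between them, so nothing is in capitals.
Cycs: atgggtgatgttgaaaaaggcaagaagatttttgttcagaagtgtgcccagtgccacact
Gm10053: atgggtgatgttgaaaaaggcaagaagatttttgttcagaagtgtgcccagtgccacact
Subunit c, the proton-carrying ring protein, is encoded by 3 genes whose import presequences differ (66 codons in Atp5g3, 61 in Atp5g1 and 71 in Atp5g2). Their last 75 codons, which form the mature protein, encode the same amino acids in all 3 genes. At the level of bases, Atp5g1 differs from Atp5g3 at 45 and Atp5g2 at 48 of these 225 positions. Atp5g1 and Atp5g2 were not compared with each other. The last 60 coding bases before the stop codon are shown, with bases that differ from Atp5g3 in capitals.
Atp5g3: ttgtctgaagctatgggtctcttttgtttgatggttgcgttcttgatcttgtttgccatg
Atp5g1: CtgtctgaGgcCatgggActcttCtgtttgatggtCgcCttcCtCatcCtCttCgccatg
Atp5g2: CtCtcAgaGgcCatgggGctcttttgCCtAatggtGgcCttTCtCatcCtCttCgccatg

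In a search of annotated mouse transcripts (GRCm38), the coding sequence of 9 members was matched along its whole length by another gene at 95% identity or more. These were Atp5g1, Atp5g2, Atp5h, Atp5l, Atp5o, Cycs, Uqcr11, Uqcrb and Usmg5. Atp5k was matched over 98.6% of its coding sequence by Atp5k-ps2 (95.7% identity), Atp5f1 over 90.2%, Uqcr10 over 80.7%, Atpaf1 over 80.5% and Atp5c1 over 18.1%, and the other 30 members had no such match. Atp5g3, Uqcrh, Sdhd and Ttc19 were among those 30. Per kilobase of mRNA, the 12 subunit genes (cytochrome c included) with at least 50% of their coding sequence matched had a median level of 76.1 CPM in WT clones, with a range of 0.369 to 270. The other 19 had a median of 197 and a range of 55.8 to 1280. The lowest levels were those of Atp5g2 (0.369 CPM per kb), Atp5l (0.655), Cycs (1.46), Atp5g1 (1.69) and Usmg5 (7.06). All 5 were matched along the whole coding sequence, with a best copy at 99.8% (Atp5g1), 99.9% (Cycs) or 100% identity (Atp5g2, Atp5l and Usmg5). Atp5o (206), Uqcr11 (137), Uqcrb (79.0) and Atp5h (73.2) were matched along the whole coding sequence too. Their best copies were at 97.0%, 98.8%, 98.2% and 99.0% identity. The part of copies in the low counts was not tested.

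**Figure D1:**
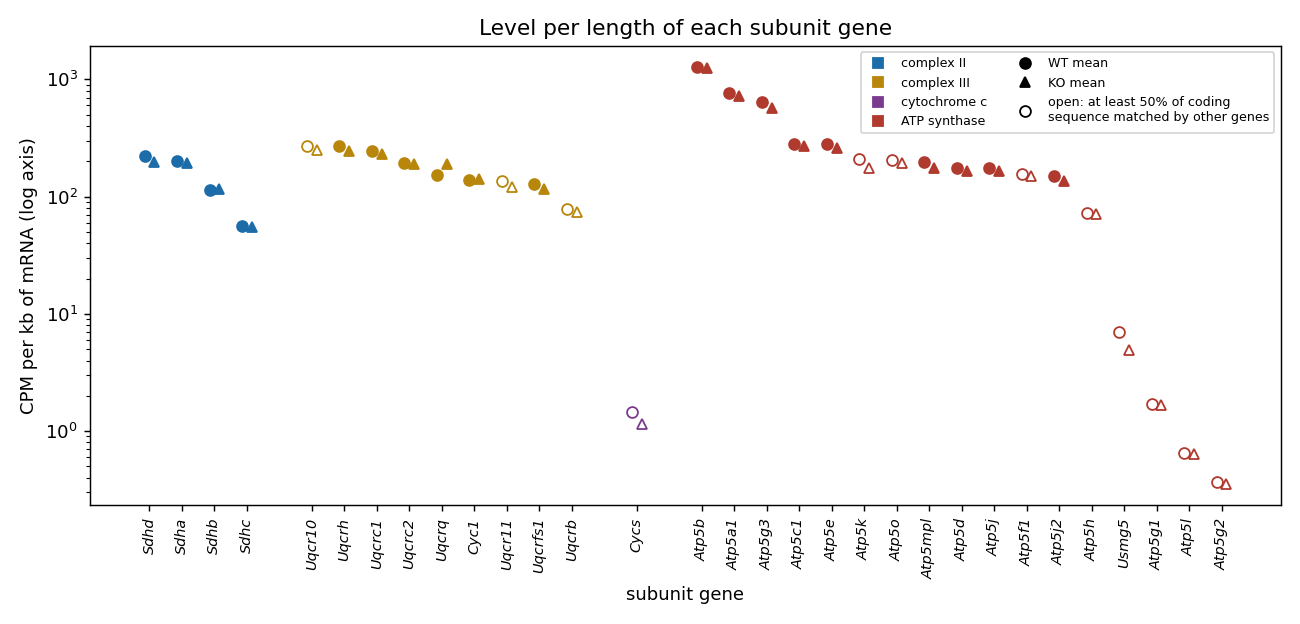
Mean CPM per kilobase of mRNA (log axis) of each subunit gene in WT (circles, n = 6) and KO clones (triangles, n = 5), by complex; open symbols mark genes with at least 50% of the coding sequence matched by another gene. The 5 genes under 10 CPM per kb are all open symbols, and Atp5b, Atp5a1 and Atp5g3 are the highest.

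The promoters of the members were searched for 4 short motifs of factors known in nuclear control of respiratory genes. RefSeq promoters (GRCm38.p6), 250 bases before to 50 after the start, were found for 37 members, but not for Atp5a1, Atp5mpl, Sdhc, Cyc1, Uqcrb, Uqcrc2 and Uqcrq. On either strand, the NRF1 motif GCGCNTGCG was in 18 of the 37 (48.6%), beside 6.6% of 27025 promoters and 14.9% of the 8938 promoters matched by symbol to a tested gene. The ETS-type motif CCGGAAG was in 13 (35.1%, beside 9.1% and 19.9%), the ERR motif CAAGGTCA in 4 (10.8%, beside 1.5% and 1.0%) and the YY1 motif AAGATGGCG in 2 (5.4%, beside 1.5% and 3.6%). At least 1 of the 4 motifs was in 27 of the 37 (73.0%), beside 16.8% of all promoters and 34.6% of those of tested genes. NRF1, ERR and GABP, an ETS factor, are known activators of respiratory genes; a match in these letters is a description and not evidence of binding.

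Promoters are shown for Atp5k and Ttc19, whose differences between the genotypes held when any 1 clone was left out, and for Sdhd, which had 3 of the 4 motifs. Matches on either strand are in capitals.
Atp5k, chr5:108434350-108434649, minus strand (NRF1 and ETS): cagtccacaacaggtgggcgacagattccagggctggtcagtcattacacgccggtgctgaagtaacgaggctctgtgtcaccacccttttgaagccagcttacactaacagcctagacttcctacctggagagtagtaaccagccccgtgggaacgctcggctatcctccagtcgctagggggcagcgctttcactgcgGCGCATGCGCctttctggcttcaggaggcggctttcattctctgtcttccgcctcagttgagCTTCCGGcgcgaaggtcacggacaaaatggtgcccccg
Sdhd, chr9:50603800-50604099, minus strand (NRF1, ETS and ERR): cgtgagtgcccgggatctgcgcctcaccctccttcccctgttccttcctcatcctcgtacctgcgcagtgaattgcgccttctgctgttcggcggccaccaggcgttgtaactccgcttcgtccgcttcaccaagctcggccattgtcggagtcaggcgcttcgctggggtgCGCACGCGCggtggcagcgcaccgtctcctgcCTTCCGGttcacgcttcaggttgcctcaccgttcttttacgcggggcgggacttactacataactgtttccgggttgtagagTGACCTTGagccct
Ttc19, chr11:62281223-62281522, plus strand (NRF1): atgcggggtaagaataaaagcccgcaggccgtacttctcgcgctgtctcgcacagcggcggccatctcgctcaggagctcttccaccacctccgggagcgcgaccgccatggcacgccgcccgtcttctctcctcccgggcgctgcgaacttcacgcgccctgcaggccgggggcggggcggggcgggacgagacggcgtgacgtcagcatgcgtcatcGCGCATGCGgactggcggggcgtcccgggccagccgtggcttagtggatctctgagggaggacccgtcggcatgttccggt
Of the other called members, Atp5g3 had the NRF1 and ERR motifs and Uqcrh the ETS motif. The NRF1 motif was in promoters of called members of either direction, beside 48.6% of the 37 members with a promoter. Its part in the differences was not tested.

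Between the genotypes, 4 members were lower in KO clones and 1 was higher at an adjusted p under 0.05 (edgeR's quasi-likelihood test on all 11900 tested genes, Benjamini-Hochberg). The 4 that fell were all structural subunits: Atp5k and Atp5g3 of the membrane part of ATP synthase, Uqcrh of complex III and Sdhd of complex II. The member that rose was Ttc19, an assembly and quality-control factor of complex III. Over all tested genes, 2.29% were called lower and 2.76% higher; among the 4925 genes at 50 CPM or more these shares were 3.61% and 4.24%. The clones of the genotypes did not overlap for 6 of the 42 members in the lower direction and for 1 in the higher direction, beside 3.02% and 2.97% of all tested genes.

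The differences were small. Of the 42 members, 34 had a negative fold change (81.0%, beside 51.6% of all tested genes), and their median log2 fold change was -0.065, beside -0.006 for all tested genes. At an unadjusted p under 0.05, 13 members were lower and 2 higher, beside 1225 and 1192 of all 11900 genes. Summed over members, KO clones held 9312 ± 307 CPM and WT clones 9726 ± 421 CPM (95.7%), and the ranges of 8898 to 9604 and 9289 to 10400 CPM overlapped. Of the structural subunits of the 3 complexes, 25 of 28 tested had a negative fold change (4 called lower, none higher, median -0.08), while the 13 assembly factors and regulators had 8 negative and 5 positive (none called lower, 1 higher, median -0.016). The classes were not tested against each other.

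**Figure D2:**
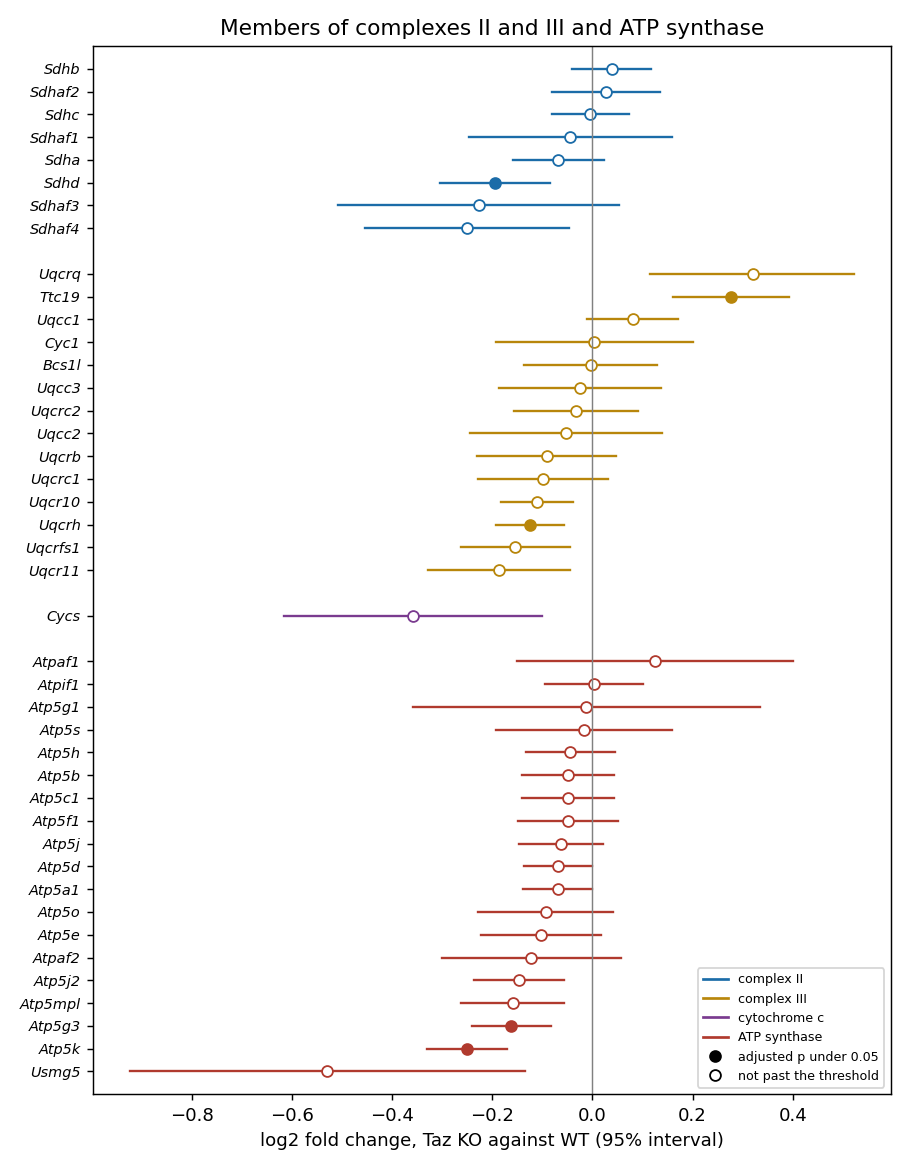
Log2 fold change of each tested member, KO against WT clones, with its 95% interval, by complex; filled points have an adjusted p under 0.05. Most points lie left of 0 and within 0.3 of it, and the filled points are Sdhd, Ttc19, Uqcrh, Atp5g3 and Atp5k.

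Among the subunits of complex II, Sdhd was lower in KO clones, and Sdha, Sdhb and Sdhc did not pass the test. Sdhd is a membrane anchor that, with Sdhc, holds the heme and the ubiquinone site. In WT clones it ranged from 258 CPM in 2E to 298 in 1A, with a median of 271. In KO clones it was 252 in 3H, 223 in 3I, 240.4 in 4J, 234 in 4K and 257 in 4L. No KO clone reached the lowest WT clone, but 4L at 256.9 CPM was just under WT 2E at 257.9. The log2 fold change was -0.19 ± 0.05 (SE, adjusted p = 0.0495), and the call was kept only without WT clone 2E; without any other single clone the adjusted p rose to at most 0.122. It was also lost with upper-quartile factors, no filter, limma-voom, the 4 set means, summed counts, offsets for GC content and length and any 1 title number dropped, with an adjusted p of at most 0.334.

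Sdha, the flavoprotein that oxidises succinate, was the complex II gene with the highest counts, at 588 ± 24.9 CPM in WT and 561 ± 27.6 in KO clones (log2 fold change -0.07 ± 0.04, adjusted p = 0.392). Sdhb, the iron-sulfur subunit, was 129.7 ± 3.29 and 133 ± 6.39 CPM (0.04 ± 0.04, adjusted p = 0.589). Sdhc, the other anchor, was 177 ± 5.32 and 176 ± 7.43 CPM, and its interval of -0.08 to 0.07 spans little on either side of 0. The anchors thus had different fold changes, a difference that was not itself tested. Per kilobase, Sdhd (224 CPM in WT clones) and Sdha (203) were above Sdhb (114) and Sdhc (55.8).

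None of the 4 assembly factors of complex II was called. Sdhaf4, which aids the joining of Sdha and Sdhb, was 11.0 ± 0.861 CPM in WT and 9.28 ± 1.04 in KO clones (log2 fold change -0.25 ± 0.09, adjusted p = 0.154). KO clone 3H, at 11.0 CPM, lay inside the WT range for this gene. Sdhaf3, an iron-sulfur cluster factor for Sdhb, had the widest range within a genotype in this complex, 6.02 to 8.94 CPM in KO clones (adjusted p = 0.351). Sdhaf1 and Sdhaf2, the latter needed for flavin attachment to Sdha, had fold changes of -0.04 and 0.03. Of the exons of Sdhaf1, 69.6% overlap E130208F15Rik on the opposite strand, and strand was not used in counting.

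In complex III, Uqcrh was lower in KO clones and Ttc19 higher, and the 12 other members did not pass the test. Uqcrh is the acidic hinge subunit beside cytochrome c1. It ranged from 139.6 CPM in 2D to 153 in 1C in WT clones, with a median of 147.5. KO clones had 136 in 3H, 129 in 3I, 133 in 4J, 139 in 4K and 136 in 4L. The highest KO clone, 4K at 139.2 CPM, was just under the lowest WT clone, 2D. This gave a log2 fold change of -0.12 ± 0.03 (SE, adjusted p = 0.0446), and the call was kept only without WT clone 2D; without any other single clone the adjusted p rose to at most 0.124. The settings other than single clones that ended the Sdhd call ended this call too, with an adjusted p of at most 0.327.

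Ttc19, which is known to bind assembled complex III and to help clear fragments of the Rieske protein, was the member called higher. WT clones ranged from 17.9 CPM in 2E to 20.7 in 1B, with a median of 19.1. KO clones had 24.0 in 3H, 22.0 in 3I, 23.1 in 4J, 24.0 in 4K and 22.8 in 4L, all above every WT clone. In log2 terms the rise was 0.28 ± 0.05 (SE, adjusted p = 0.0158). It stayed called without any 1 clone, with an adjusted p of at most 0.0451, but not with counts summed per title number or without all clones of any 1 title number. Bcs1l, which inserts the Rieske protein, was 29.9 ± 1.68 CPM in WT and 29.8 ± 2.28 in KO clones (interval of the log2 fold change -0.14 to 0.13). Uqcc1, Uqcc2 and Uqcc3, factors for cytochrome b, had fold changes of 0.08, -0.05 and -0.02, none called.

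Uqcrq, a small subunit next to cytochrome b, went the other way from most subunits without passing the test. WT clones had 156 CPM in 1A, 144 in 1B, 133 in 1C, 181 in 2D, 128 in 2E and 137 in 2F. KO clones had 176 in 3H, 189 in 3I, 203 in 4J, 159.8 in 4K and 187 in 4L. Only WT clone 2D lay inside the KO range. The log2 fold change was 0.32 ± 0.09 (SE, adjusted p = 0.0754), and without 2D the adjusted p was 0.0129 (0.00627 to 0.385 over all settings run, called in 7 of 29). Clone 2D was also the clone with the high sum of late neutrophil markers. The part of these markers in its Uqcrq level was not tested.

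Of the catalytic subunits, Uqcrfs1, the Rieske iron-sulfur protein, was 176 ± 11.7 CPM in WT and 158 ± 6.63 in KO clones (log2 fold change -0.15 ± 0.05, adjusted p = 0.107, and 0.0442 without WT clone 2E within a range of 0.0212 to 0.44 over all settings run). Cyc1, cytochrome c1, was 212 ± 30.2 and 213 ± 12.7 CPM (0.00 ± 0.09), and WT clone 2D at 267 CPM stood above the other WT clones, which lay between 191 and 229. The core proteins Uqcrc1 (404 and 378 CPM) and Uqcrc2 (368 and 359.5 CPM) had fold changes of -0.10 and -0.03, neither called. The small subunits Uqcr10, Uqcr11 and Uqcrb had fold changes of -0.11, -0.19 and -0.09, with adjusted p of 0.0816, 0.127 and 0.46, and all 3 have copies. Per kilobase, Uqcr10 (270 CPM in WT clones) and Uqcrh (268) were the highest of the complex and did not differ beyond the spread of WT clones, and Uqcrb (79.0) was the lowest. Uqcc2 had the widest range within a genotype in this complex, from 33.7 CPM in 1C to 48.2 in 2D (1.43 times), followed by Uqcrq in WT clones (1.42 times).

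Cytochrome c, the carrier between complexes III and IV, is encoded by Cycs, whose counts are uncertain because of its copies. WT clones ranged from 4.09 to 5.19 CPM with a median of 4.50, and KO clones had 3.96 in 3H, 3.52 in 3I, 3.19 in 4J, 3.62 in 4K and 3.46 in 4L. The clones did not overlap, but the log2 fold change of -0.36 ± 0.12 (SE) did not pass the test (adjusted p = 0.109).

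In ATP synthase, the 2 called members, Atp5k and Atp5g3, were both of the membrane part. Atp5k encodes subunit e, which sits where ATP synthase dimers meet. In WT clones it ranged from 73.2 CPM in 1C to 82.0 in 2D, with a median of 79.0. KO clones had 64.6 in 3H, 63.8 in 3I, 69.0 in 4J, 64.9 in 4K and 66.2 in 4L, all under every WT clone. The log2 fold change was -0.25 ± 0.04 (SE, adjusted p = 0.00454), a level 15.9% lower. It stayed called without any 1 clone (adjusted p at most 0.0187) and had the smallest adjusted p of the 42 members. The call was lost with counts summed per title number and when the clones numbered 3, or those numbered 4, were dropped. Atp5k is also 1 of the members with a copy, Atp5k-ps2, which matches 98.6% of its coding sequence and held at most 7 counts in any clone. The part of this copy in the difference was not tested.

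Atp5g3 encodes subunit c and gave nearly all of the counts assigned to the 3 c genes. In WT clones it ranged from 444 CPM in 2E to 485 in 2D, with a median of 454. KO clones had 409 in 3H, 385 in 3I, 427 in 4J, 404 in 4K and 427 in 4L, with no overlap. Its log2 fold change was -0.16 ± 0.04 (SE, adjusted p = 0.0306). The call was lost without WT clone 1A, 1B or 1C or KO clone 3H, 3I or 4K, with an adjusted p of at most 0.0755. It was also lost with no filter, counts summed per title number, offsets for GC content and length and any 1 title number dropped, with an adjusted p of at most 0.221. Atp5g1 was 4.52 ± 0.717 and 4.48 ± 0.767 CPM (fold change -0.01 ± 0.16), and Atp5g2 was 0.216 ± 0.118 and 0.206 ± 0.134 CPM, and both have full-length copies, so the order of the paralogs is uncertain. The 2 copies of Atp5g2 held at most 1 count and the copy of Atp5g1 at most 40 in any clone.

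Apart from Atp5g1, the other tested genes of the membrane part pointed the same way without passing the test. Atp5j2, subunit f, was 143 ± 7.10 CPM in WT and 129 ± 4.70 in KO clones with no overlap (log2 fold change -0.15 ± 0.04, adjusted p = 0.0658). Atp5mpl, a small proteolipid of the enzyme, was 96.4 ± 4.52 and 86.3 ± 5.10 CPM (-0.16 ± 0.05, adjusted p = 0.0814). Usmg5, known as DAPIT and linked to dimers, was 2.56 ± 0.531 and 1.77 ± 0.277 CPM (-0.53 ± 0.18, adjusted p = 0.123), the largest fold change and, with its copies, 1 of the least certain. Atp5l, subunit g, was 0.356 ± 0.161 and 0.348 ± 0.177 CPM, too low to test. All 6 tested Fo genes thus had a negative fold change (median -0.161), 5 of them at an unadjusted p under 0.05. That of Atp5g1 was near 0 (-0.012) and changed sign in 11 of 28 settings. Summed, the Fo genes were 784 ± 26.9 CPM in WT clones (759.8 to 832) and 698 ± 28.3 in KO clones (659.5 to 727), or 89.0%, and the ranges did not overlap; Atp5g3 makes up most of this sum.

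The soluble head showed smaller differences. Atp5b and Atp5a1, the catalytic beta and the alpha subunit, were the members with the highest counts, ranking 12th and 19th of all tested genes. Atp5b was 2451 ± 129 CPM in WT and 2369 ± 85.6 in KO clones (log2 fold change -0.05 ± 0.04, adjusted p = 0.556), and Atp5a1 was 1879 ± 60.7 and 1792 ± 46.7 CPM (-0.07 ± 0.03, adjusted p = 0.244). The rotor subunits Atp5c1 (gamma), Atp5d (delta) and Atp5e (epsilon) had fold changes of -0.05, -0.07 and -0.10, none called. Summed, the F1 genes stood at 96.0% of the WT level, and the stalk genes Atp5o (OSCP), Atp5f1 (b), Atp5h (d) and Atp5j (F6) at 95.7%, with clones overlapping in both sums. Fold changes in the stalk ran from -0.09 for Atp5o to -0.04 for Atp5h, none called, and 35.6% of Atp5o and 12.7% of Atp5j exons overlap genes on the opposite strand. The fold of Fo genes was not tested against that of F1 or stalk genes.

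Per kilobase, Atp5b (1280 CPM in WT clones), Atp5a1 (760) and Atp5g3 (639) led the enzyme, ahead of Atp5c1 and Atp5e (281 each). The inhibitor Atpif1, which blocks the reverse reaction of F1, was 169.9 ± 7.08 in WT and 170.4 ± 10.2 CPM in KO clones (interval of the log2 fold change -0.10 to 0.10), and 33.7% of its exons overlap Gm12999 on the opposite strand. The F1 assembly factors Atpaf1 and Atpaf2 had fold changes of 0.13 and -0.12, and the coupling factor Atp5s -0.02, none called. Among tested members of the enzyme, Usmg5 had the widest range within a genotype, from 1.86 CPM in WT clone 1C to 3.48 in 2F (1.87 times).

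**Figure D3:**
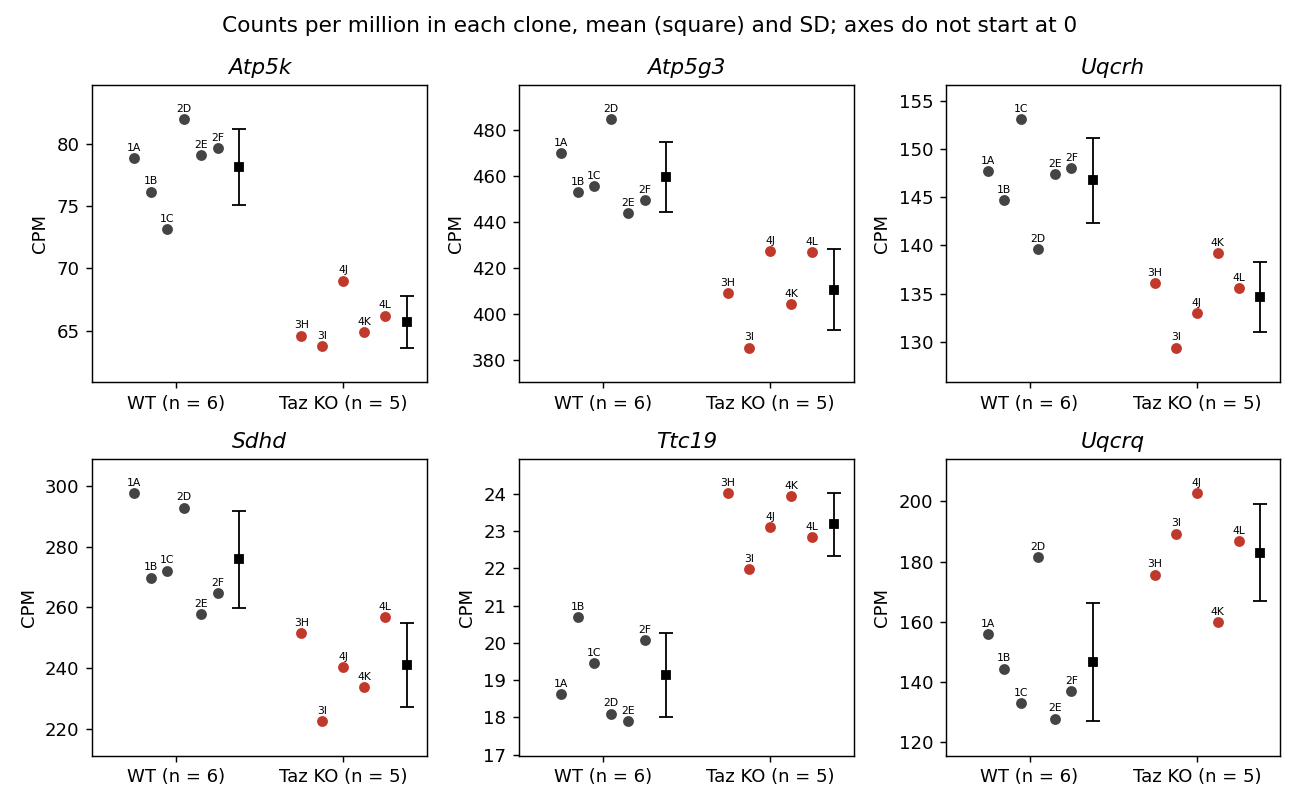
CPM in each clone (points, named by clone) with the mean (square) and SD of 6 WT and 5 KO clones for the 5 called members and Uqcrq; axes do not start at 0. The genotypes do not overlap for Atp5k, Atp5g3, Uqcrh, Sdhd and Ttc19, and for Uqcrq WT clone 2D at 181 CPM lies inside the KO range of 159.8 to 203.

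**Figure D4:**
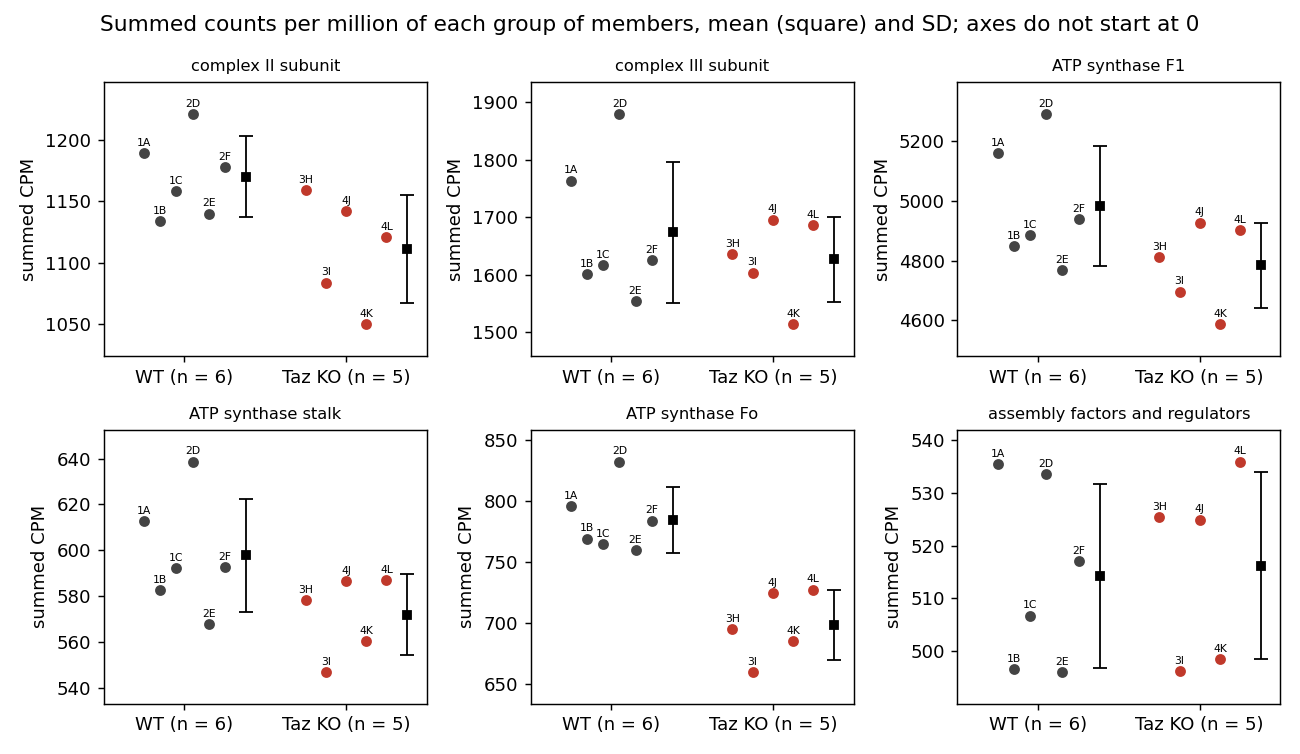
Summed CPM of each group of members in each clone, with the mean (square) and SD of 6 WT and 5 KO clones; axes do not start at 0. Only the Fo panel shows no overlap, with KO clones at 659.5 to 727 and WT clones at 759.8 to 832, and 2D is the highest WT clone in 5 of the 6 panels.

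Clones of the same genotype differed in how many members were high. WT clones 2D and 1A had 33 of the 42 tested members each above that member's mean over the 11 clones, WT 2F had 28, 1B and 1C 20 each and 2E 16. Among KO clones, 4L had 23, 4J 19, 3H 18, 3I 7 and 4K 3. The mean covers both genotypes, so these counts also hold the difference between the genotypes. The same counts over all tested genes are not given, so the pattern is not shown to be particular to the members. The median centred log2 level ran from 0.145 in 2D to -0.102 in 4K. Summed markers of the cell state moved with these levels, though not every marker did. The sum of the 10 late neutrophil markers was far higher in 2D than elsewhere, but Mmp8 was highest in WT clone 1C (39.8 CPM, beside 34.1 in 2D). The 4 mast cell or basophil markers summed to least in 2D (1006 CPM) and 1A (1342) and to most in 4K (4702), 3I (4262) and, among WT clones, 2E (3799). Cpa3 made up most of this sum, and Mcpt8 also went with it (82.5 CPM in 2D, 293 in 4K). Prss34 did not, with its highest level in 1A (252 CPM, beside 83.7 in 4K), and Fcer1a stayed under 1 CPM. The sum of the 11 GMP markers, with Mpo as its largest part, ran the other way. It was 13120 CPM in 2E, 13250 in 3I and 12240 in 4K, beside 16680 to 22520 in the other clones. Mpo and Elane, enzymes of the primary granules, were 13250 and 825 CPM in 2D and 5347 and 2.26 CPM in 4K. Kit and Cd34 of the same list went against the sum, at 515 and 1202 CPM in 2D and 866.5 and 2209 CPM in 4K. The part of these markers in the clones' levels was not tested. Without 2D, 30 of the 42 fold changes were negative, the median was -0.057, and 3 members were called lower and 2 higher. Sdhd was no longer called and Uqcrq was. Over all tested genes, 739 of 11826 were then called, beside 601 of 11900 with all clones. When the model held each clone's late neutrophil score, 6 members were called lower and 2 higher. Calls over all 11900 tested genes were 957 with this score. With a mast cell or a GMP score in its place, covariates chosen after seeing the data, 4 were called lower and 2 higher, and Atp5k, Atp5g3, Uqcrh, Sdhd and Ttc19 stayed called; the higher count then held Uqcrq too (adjusted p = 0.023 and 0.0202). The members' median was -0.057 and -0.038 in these fits, and 783 and 809 of all 11900 tested genes were called.

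**Figure D5:**
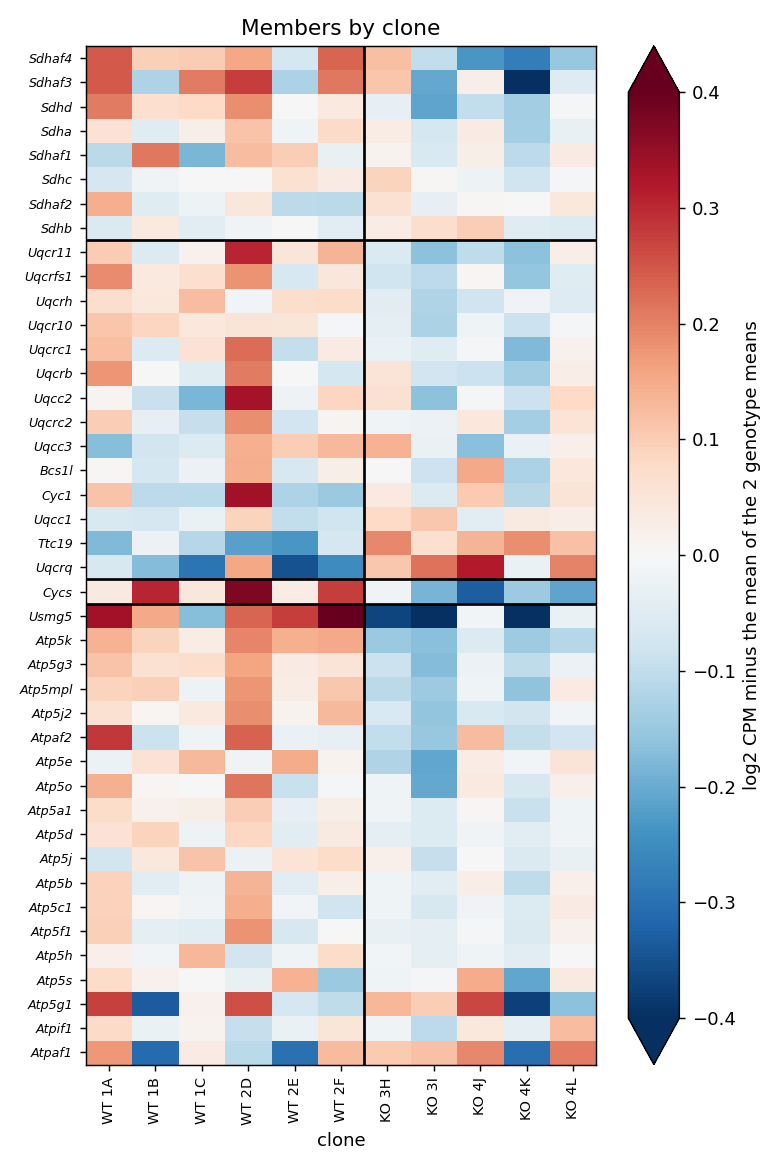
Log2 CPM of each tested member in each clone minus the mean of the WT and KO means (color scale ends at 0.4 on either side; lines separate genotypes and complexes). The columns of WT 2D and 1A are mostly red (higher) and those of KO 3I and 4K mostly blue (lower). In the rows of Ttc19 and Uqcrq, 2 of the 8 members with a positive fold change, KO clones are mostly red.

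No member was called between title numbers within a genotype. Number 2 against 1 in WT clones and number 4 against 3 in KO clones gave 0 called members, with 0% of all tested genes called in the former and 0% in the latter (edgeR; 1 member in each at an unadjusted p under 0.05; 0 members by DESeq2 and by limma-voom too). The median absolute log2 fold change of the members was 0.043 and 0.045 in these contrasts, beside 0.086 between the genotypes. Over all tested genes these medians were 0.08, 0.072 and 0.114, and over genes at 50 CPM or more 0.049, 0.042 and 0.079.

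Of 39 tested genes that work with these complexes, 1 was called, a share near that of all tested genes (2.29% lower and 2.76% higher). Etfdh, which passes electrons from fatty acid and amino acid oxidation to ubiquinone, ranged from 65.9 CPM in 1B to 77.2 in 2F in WT clones, with a median of 74.5. KO clones had 60.3 in 3H, 58.4 in 3I, 59.9 in 4J, 54.1 in 4K and 62.6 in 4L, all under every WT clone. Its log2 fold change was -0.30 ± 0.05 (SE, adjusted p = 0.0121), and it stayed called without any 1 clone (adjusted p at most 0.0407) but not without all clones of any 1 title number. None of the other 5 genes that feed electrons to ubiquinone was called, among them Gpd2, Dhodh and Prodh.

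None of the 13 genes of ubiquinone synthesis was called (median -0.01), and their most abundant member, Coq9, was 65.2 ± 3.95 and 67.2 ± 5.46 CPM. None of the 10 further assembly and supercomplex genes was called (median 0.003). Oxa1l, their most abundant member and an insertase of the inner membrane, was 109 ± 2.30 and 112 ± 4.64 CPM. Cox7a2l of the same list was 70.4 ± 6.78 and 83.6 ± 3.91 CPM (0.25 ± 0.07, adjusted p = 0.0552). None of the 10 genes of ATP export and cristae was called (median -0.017). Slc25a3, the phosphate carrier and the most abundant of these, was 680.8 ± 19.8 and 680.4 ± 10.4 CPM (interval of the log2 fold change -0.06 to 0.06). Slc25a4, an ADP/ATP carrier, was 188 ± 18.6 and 166 ± 2.85 CPM with no overlap (-0.18 ± 0.06, adjusted p = 0.127).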

How the data were processed

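RNA was measured in 6 WT and 5 KO clones, grouped by the genotype in the labels. The deposited values are whole-number counts of reads for each Ensembl gene and clone, neither normalised nor pooled by the authors. Libraries were polyA-selected, per the labels' protocols. The submitters' processing notes name STAR, HTSeq, edgeR and the build mm9, with no tool version, and the deposited counts are marked as made without regard to strand. Of 37583 gene IDs, 32860 (87.4%, with 99.6% of counts) were matched to symbols in a GRCm38 annotation, used for names, lengths, GC content, copies and overlaps only.

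The genotypes were compared by edgeR's quasi-likelihood test in its robust form (TMM, filterByExpr, Benjamini-Hochberg over 11900 genes; called at an adjusted p under 0.05), tested on simulated data. CPM use TMM-scaled library sizes, and an SE is the absolute log2 fold change over the root of F. Levels per kilobase use the length of the principal mRNA. Copies were found with blastn (at least 100 bases at 95% identity, overlapping coding sequence), a search chosen after values were seen. Members, partner lists, marker lists, motifs and tests were chosen with earlier results of these data known. Every member may be named; values by clone are given for called or non-overlapping members, the most abundant and most variable of each complex and the 3 subunit c genes, and up to 4 called or the most abundant of each partner list. Gpd2, Dhodh, Prodh, Cox7a2l and Slc25a4 were chosen after their values were seen. Alternatives were other normalizations, filters, tests and covariates, models of the title number, and leaving out clones or title numbers; mast cell and GMP covariates were added after seeing the data. Choldh, Uqcc4, Uqcc5 and Uqcc6 were not matched and are not analysed here. The tools were blastn 2.17.0, edgeR 4.0.16 with limma 3.58.1 in R 4.3.3, DESeq2 1.42.0 as an alternative, and Python 3.11.15 with matplotlib 3.10.9 for figures.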

Additional observations from a re-analysis of the deposited data

Results flagged for a closer look

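Among the 42 tested members and Taz, 86 groups of clones were checked for a clone far from the others of its genotype (Dixon's test at 95%), and 3 had such a clone; chance gives about 1 in 20 groups, or 4.3 of 86. Atpaf1 was 8.80 CPM in KO clone 4K, while the nearest other KO clone was at 11.7 CPM. Atpaf2 was 49.2 CPM in KO clone 4J, with the nearest other at 42.7 CPM. Uqcc1 was 86.9 CPM in WT clone 2D, with the nearest other at 80.3 CPM. None of the 3 genes was called between the genotypes.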

How the results depend on the processing

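The count of members called lower, 4, became 2 with upper-quartile factors, limma-voom and the 4 set means, 1 with no filter and with GC content and length offsets, 8 with DESeq2, 6 with a late neutrophil covariate and 12 with the title number as a random effect (consensus correlation -0.215). It was 0 with counts summed per title number, 1 without title number 1 or 2, and 0 without title number 3 or 4. Without each clone it lay between 1 and 4. Over all tested genes, 601 of 11900 were called in either direction, and this number moved too. It became 595 with upper-quartile factors, 599 with limma-voom, 307 with the 4 set means and 434 with the offsets. DESeq2 gave 1261, the late neutrophil covariate 957 and the random effect 1963. With no filter it was 329 of 21266, and with summed counts 197 of 13697. Without title numbers 1, 2, 3 and 4 it was 45, 296, 92 and 32, and without each clone 240 to 739. The count called higher, 1, was 2 with DESeq2, the random effect, the covariate and the mast cell and GMP covariates added after seeing the data, 0 without any 1 title number, and 1 to 2 without each clone. With counts summed per title number, Ttc19 was not called and Uqcrq was. For complex II, 1 became 0 with upper-quartile factors, no filter, limma-voom, set means, summed counts, the offsets and without any 1 title number, and 2 with the random effect; without each clone it was 0 to 1. For complex III and cytochrome c, 1 became 0 in the same settings, 3 with DESeq2 and 5 with the random effect; without each clone it was 0 to 1. For ATP synthase, 2 became 1 with no filter, the offsets and without title number 1 or 2, 0 with summed counts and without title number 3 or 4, 4 with DESeq2 and the covariate and 5 with the random effect; without each clone it was 1 to 2. Partner genes called, 1, became 2 with the stricter filter, DESeq2, the late neutrophil and mast cell covariates and the offsets, 5 with the random effect and 0 without title number 1, 3 or 4, and 1 to 2 without each clone. Settings that drop a title number or sum counts leave fewer libraries. The random effect, with its negative correlation, was not a stricter setting, as it called 1963 of 11900 genes beside 599 with limma-voom alone. For the other moves the cause was not tested. Both contrasts between title numbers stayed at 0 in each setting run, and Taz, KO against WT, stayed between -3.49 and -3.70 without each clone. The members' median log2 fold change was -0.038 to -0.085, with 30 to 36 negative.

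Fold changes of 10 members that were never called changed sign in some setting, with the changed values within 0.1 of 0. Atp5g1 was 0 with set means, 0.02 with summed counts, 0.03 with the covariate, 0 and 0.10 without title numbers 2 and 4, and -0.08 to 0.07 without each clone. Atpif1 was 0 with no filter, -0.01 and 0 with set means and summed counts, -0.02 and -0.05 without title numbers 2 and 4, and -0.03 to 0.03 without each clone. Sdhc was 0, 0.01 and 0.01 with set means, summed counts and offsets, 0.03 and 0.05 without title numbers 2 and 4, and -0.03 to 0.02 without each clone. Bcs1l was 0 with the random effect, 0.03 with the covariate and the offsets, 0.03 and 0.02 without title numbers 2 and 3, and -0.04 to 0.03 without each clone. Cyc1 was 0 with no filter, -0.03 and -0.01 without title numbers 1 and 4, and -0.03 to 0.08 without each clone. With the mast cell and GMP covariates Atp5g1 was 0.02 and 0.08 and Bcs1l 0.01 and 0.04, and with the latter Uqcc2 was 0.01 and Uqcrc2 0.02. With the late neutrophil covariate Uqcc2 and Uqcrc2 were 0.01, and with the offsets Uqcc3 was 0.02, Sdhaf2 -0.01 and Atp5s 0. Without title number 2, Uqcc2 was 0.06, Uqcc3 0.09 and Sdhaf2 -0.01; Uqcc3 was 0.05 without 4 and Atp5s 0 without 1. Without each clone the ranges were -0.09 to 0.02 for Uqcc2, -0.06 to 0.01 for Uqcc3, 0.01 to 0.06 for Sdhaf2, -0.06 to 0.03 for Atp5s and -0.05 to 0 for Uqcrc2. No paired analysis was possible because the title numbers of WT and KO clones differ.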
